A study of Mus musculus with 2 samples.

Results

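In mouse adrenal gland, long-read RNA sequencing was used to follow 8 genes for transcription factors of the sympathoadrenal lineage, the neural crest branch that gives sympathetic neurons and the chromaffin cells of the adrenal medulla. The set holds Phox2a, Hand2, Gata2, Gata3, Insm1, Isl1, Tfap2b and Sox11. Its members were picked out by gene name, and 7 of the 8 are among the 18168 annotated genes with a read in either library. All reads that the deposited tables assign to these genes were used, with their transcript models. The 2 libraries, replicates 1 and 2, come from 1 group, adrenal gland of 25-day-old male mice of the hybrid strain B6CASTF1/J. The labels name no treatment, transgene or deletion. By their library labels both come from 1 animal, by their tissue labels from different ones, and the donor record is shared, so the spread between the libraries may be technical. An RNA input of 1 µg is given for replicate 2 only.

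During development, Phox2a, Hand2, Gata2, Gata3, Insm1, Isl1 and Tfap2b act in a network that sets up this lineage. Several of them act on Th and Dbh, which code for enzymes of catecholamine synthesis. Sox11 is known for its expression in immature sympathoadrenal cells. Outside this lineage, Gata2 is known in endothelial and blood cells, Gata3 in T cells, and Hand2 in the heart and limb. In a bulk sample, fewer cells of a type and less RNA per cell cannot be told apart.

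The tables held 752432 gene reads in replicate 1 and 1210671 in replicate 2, and levels are given as CPM, reads scaled to 1000000 gene reads. A long read was counted as 1 read whatever the length of its transcript, so CPM is not corrected for length. How PCR copies were treated is not stated, so reads are not shown to be separate molecules. The intervals and tests take the reads as independent. Intervals are 95% Clopper-Pearson intervals and cover counting error only. In place of an interval, a count of 0 is taken to allow up to 3 reads, which is 3.99 CPM in replicate 1 and 2.48 in replicate 2. The labelled tissue was checked against marker lists. All 7 adrenocortical genes and all 16 chromaffin cell genes had reads in both libraries, and 6 kidney genes together had 0 and 2. The libraries stood apart in genes of other tissues: the sum over 6 liver genes was 5.32 CPM in replicate 1 against 43821 in replicate 2, and over 6 skeletal muscle genes 2301 against 0.826 CPM. The part of these reads in the results was not tested beyond leaving the listed liver and skeletal muscle genes out of the total. Any other transcripts of these tissues stayed in it.

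Of the 8 genes, 7 had reads in both libraries, with at most 49 reads each. Together they took 102 reads in replicate 1 and 121 in replicate 2, or 135.6 and 99.9 CPM. Gata2 had the highest level, in CPM and per kb, at 51.6 ± 19.2 CPM (SD, n = 2). Hand2 stood at 18.6 ± 1.80, Insm1 at 15.2 ± 2.87, Gata3 at 14.7 ± 5.56 and Phox2a at 9.86 ± 1.09 CPM (SD, n = 2). Isl1 reached 4.06 ± 0.101 and Tfap2b 3.81 ± 1.62 CPM (SD, n = 2), and Sox11 had no read. Isl1 rested on 3 and 5 reads, with counting intervals of 0.822 to 11.7 and 1.34 to 9.64 CPM, far wider than its SD. Tfap2b rested on 2 and 6 reads, with 0.322 to 9.60 and 1.82 to 10.8 CPM. In replicate 1 neither count exceeded the 3 reads that a count of 0 is taken to allow. In replicate 2 the counting interval of Gata2 (27.8 to 50.7 CPM) overlapped that of Hand2 (12.7 to 29.5 CPM). In replicate 1 it did not, running from 48.2 to 86.1 CPM against at most 31.2 CPM in any other member. Hand2, Insm1, Gata3 and Phox2a had overlapping intervals in both libraries, so their order is not settled by the counts. Per kb of the longest annotated transcript, the mean level was 14.4 CPM per kb for Gata2, 7.89 for Hand2, 6.13 for Phox2a, 4.92 for Insm1, 4.56 for Gata3, 1.61 for Isl1 and 0.649 for Tfap2b. On that scale Phox2a moved above Insm1 and Gata3.

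**Figure D1:**
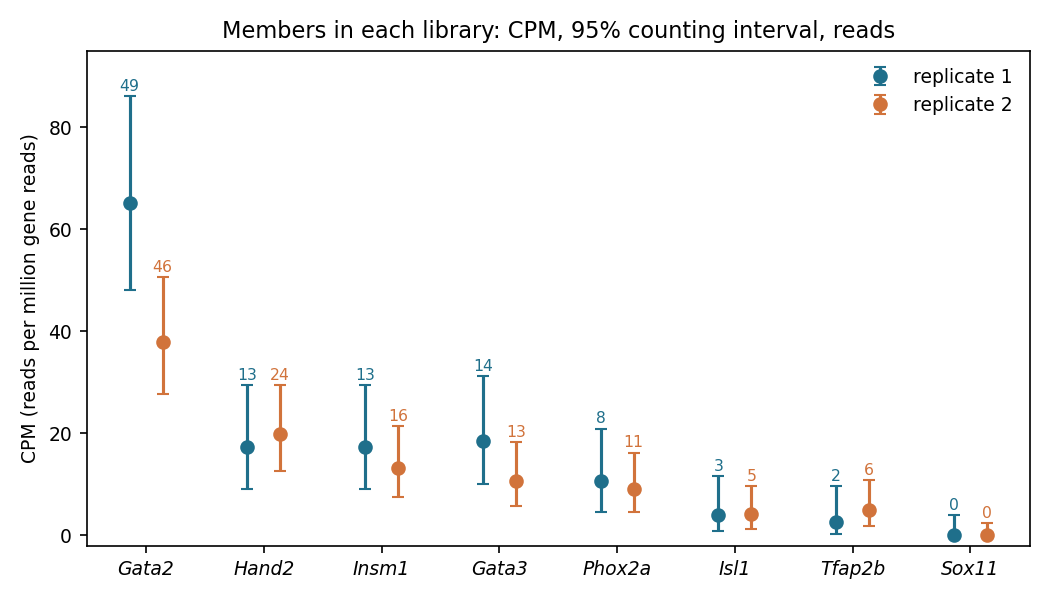
Level of each member in CPM (y axis) in replicate 1 (blue) and replicate 2 (orange), with points for the libraries, bars for the 95% Clopper-Pearson interval (for Sox11, up to 3 reads) and the read count above each bar. Gata2 lies highest in both libraries, at 65.1 and 38.0 CPM, and Sox11 lies at 0.

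The libraries were compared gene by gene with Fisher's exact test (two-sided) and Benjamini-Hochberg adjustment, which compares 2 libraries and not 2 conditions. The 2 libraries together held at least 10 reads for 11382 genes, of which 36.8% passed an adjusted p of 0.05, 25.3% lower and 11.5% higher in replicate 2. Among the 5 members with enough reads, 1 passed, Gata2, which was lower in replicate 2. Gata2 had 49 reads in replicate 1 and 46 in replicate 2. The ratio of its levels was 0.583 (95% interval 0.382 to 0.891), a log2 difference of -0.78 ± 0.29 (SE), with an adjusted p of 0.0322 by Fisher's exact test. That is 1.71-fold lower. Counted over annotated models alone the log2 difference was -1.97, and without ISM models, which lack part of an annotated chain, -1.94 (adjusted p = 9.75e-06 and 9.66e-06 by Fisher's exact test). Both settings drop the ISM reads, which were 9 of 49 Gata2 reads in replicate 1 and 30 of 46 in replicate 2. They therefore mix the level with the completeness of the models and do not measure the level alone. The median log2 difference over the 5 tested members was -0.40, beside -0.34 over all tested genes. With edgeR's TMM factors the median over all genes moved to 0.01, the calls split into 2015 higher and 1563 lower instead of 1307 and 2876, and Gata2 lay at -0.43 with an adjusted p of 0.295 by Fisher's exact test. Its call also ended with DESeq2 size factors (adjusted p = 0.388), with chromaffin cell genes as the total (0.652) and with no read minimum (0.0506), all by Fisher's exact test. Hand2 (0.17 ± 0.49), Phox2a (-0.25 ± 0.65), Insm1 (-0.40 ± 0.53) and Gata3 (-0.79 ± 0.55) had log2 differences no larger than 2 standard errors.

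Gata2 and Gata3 code for zinc finger proteins that bind GATA motifs. Gata2 lies at chr6:88193891-88207032 on the plus strand (mm10) and has a distal first exon, used by the transcript Gata2-202, and a proximal first exon 4443 bases downstream, used by Gata2-201. Both splice to the same second exon. In replicate 1, 8 reads began at the distal exon and 33 at the proximal exon, and in replicate 2, 4 and 10. The distal share of reads with a first exon was 19.5% (95% interval 8.82 to 34.9%) and 28.6% (8.39 to 58.1%). The intervals overlap widely, and the proximal exon held more reads in both libraries. The 250 bases before the distal start, chr6:88193641-88193890 (GRCm38.p6, plus strand, RefSeq), are shown because this exon gave reads in both libraries. Capitals mark CG dinucleotides.
Gata2 distal: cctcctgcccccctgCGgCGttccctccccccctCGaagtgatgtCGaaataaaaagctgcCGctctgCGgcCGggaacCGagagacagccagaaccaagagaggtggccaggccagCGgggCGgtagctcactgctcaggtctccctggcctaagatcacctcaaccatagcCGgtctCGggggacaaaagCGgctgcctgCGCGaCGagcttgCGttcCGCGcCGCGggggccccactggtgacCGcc
This stretch holds 22 CG dinucleotides, beside a median of 6 over 32851 RefSeq promoters of the same length, 85% of which hold fewer. On either strand it contains no GATA motif, no E-box (CANNTG) and no ATTA, the core word of homeodomain sites. Of all promoters, 53.6% hold a GATA motif, 66.2% an E-box and 54.9% an ATTA. No match means only that these letters are not in this window.

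The Gata2 reads of the libraries differed in how far they reached towards the 5′ end. In replicate 1, 30 of 49 reads (61.2%) matched the complete Gata2-201 and 7 Gata2-202. In replicate 2, 9 of 46 (19.6%) matched Gata2-201 and 4 Gata2-202. The most frequent model of replicate 2, with 22 reads, had 4 exons and began at exon 3; replicate 1 had 1 read of it. This model is an incomplete splice match (ISM), which shares its introns with an annotated transcript but lacks some at an end. An exception in this class is a Gata3 model with 2 reads in replicate 2, which uses an acceptor absent from the annotation. The share of reads in the leading intron chain, that of Gata2-201, was tested over the 5612 genes that had more than 1 chain and, library by library, at least 20 reads; 12.4% passed. Gata2, the only member with enough reads, passed with an adjusted p of 0.00115 by Fisher's exact test. A single-exon ISM model at the 3′ end, the last exon, had 5 and 6 reads. Another ISM model, with 3 reads in replicate 1 and 0 in replicate 2, began at the proximal exon and kept the intron behind it. The retained-intron transcript Gata2-205 had 0 and 2 reads.

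**Figure D2:**
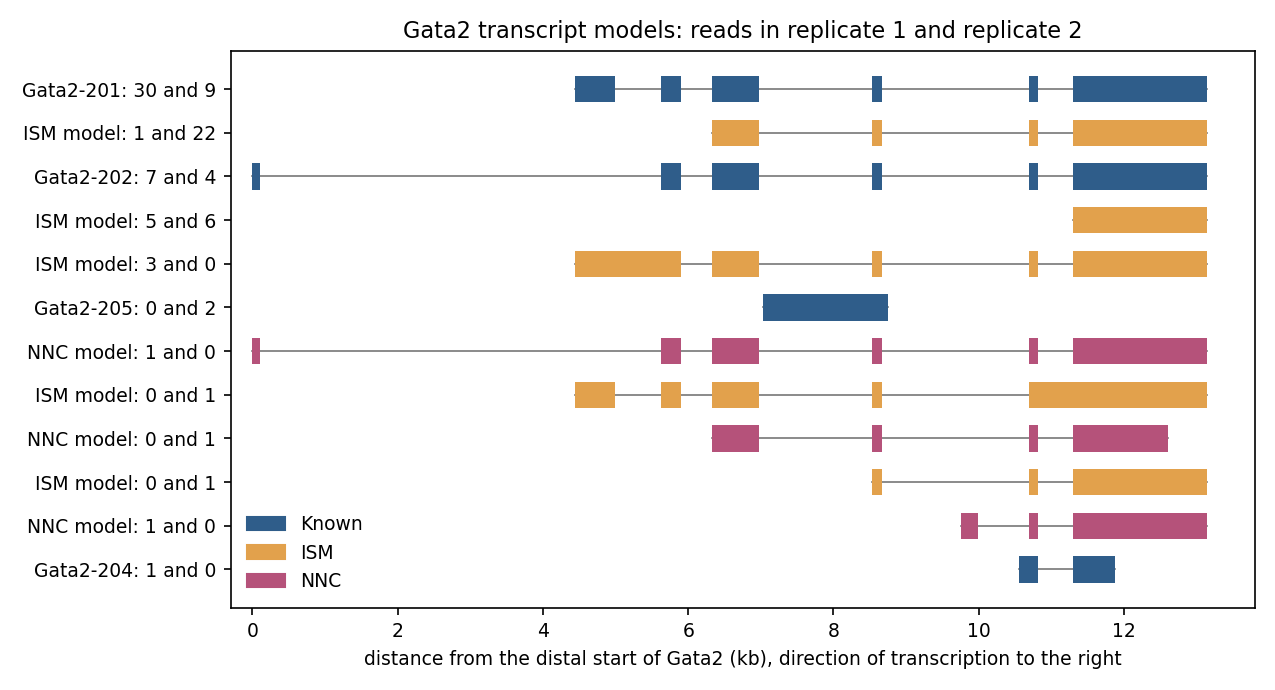
Gata2 transcript models drawn by distance from the distal start in kb, with boxes for exons, lines for introns and colours for the class (Known, ISM, and NNC, which has a splice site outside the annotation). The reads in replicate 1 and replicate 2 follow each name: Gata2-201 leads with 30 and 9, and the 4-exon ISM model has 1 and 22.

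Intron by intron, the difference lay in the 5′ part. Either first intron was spliced in 38 of 49 Gata2 reads of replicate 1 (77.6%, 95% interval 63.4 to 88.2%) and in 14 of 46 of replicate 2 (30.4%, 17.7 to 45.8%). The intervals do not overlap. Intron 5 was spliced in 44 of 49 (89.8%, 77.8 to 96.6%) and 37 of 46 (80.4%, 66.1 to 90.6%), and these intervals do overlap. Gata3, at chr2:9857078-9890034 on the minus strand (mm10), was read in the same way. Its first intron was spliced in 11 of 14 reads of replicate 1 (78.6%, 49.2 to 95.3%) and in 0 of 13 of replicate 2, which allows up to 3 reads. A further 1 read of replicate 1 spliced it from a donor outside the annotation and is not counted here. Intron 5 was spliced in 14 of 14 and 12 of 13 reads. In replicate 1, 7 Gata3 reads matched the complete Gata3-201, and in replicate 2 no read did. Several incomplete Gata3 models start at exon edges of other annotated transcripts, so a model's end is known only to the nearest edge. At the 3′ side, models with 13 of 14 reads in replicate 1 ended at the annotated end and models with 11 of 13 in replicate 2 ended 796 bases before it.

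**Figure D3:**
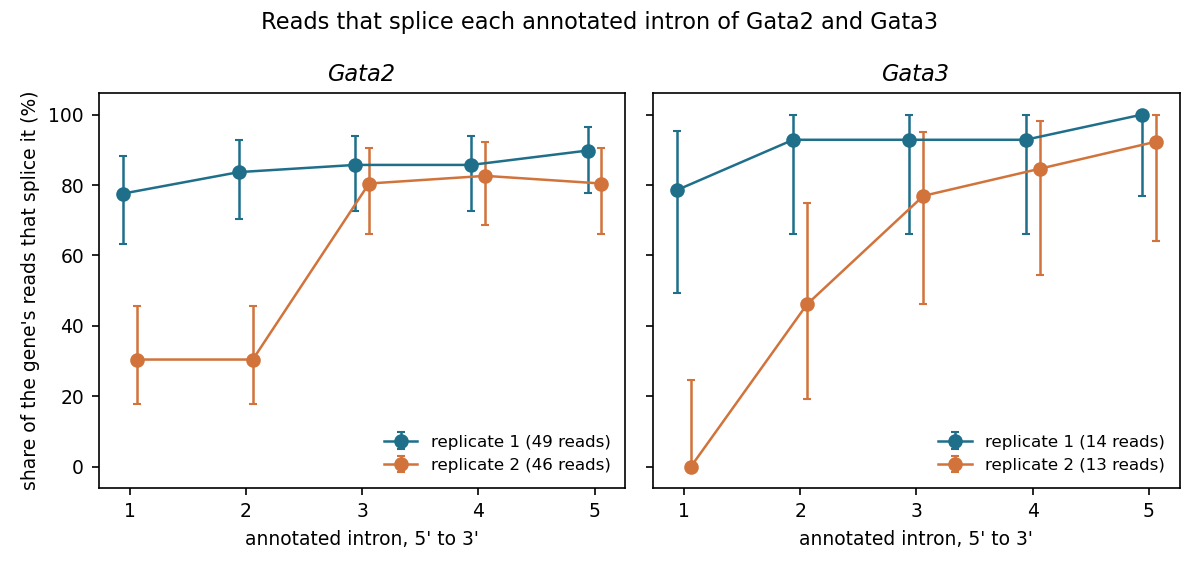
Share of the gene's reads that splice each annotated intron of Gata2 (left) and Gata3 (right), in percent, numbered from the 5′ end, for replicate 1 (blue) and replicate 2 (orange) with 95% Clopper-Pearson bars. For Gata2 either first intron counts, and for intron 3 either of the acceptors 3 bases apart; in replicate 2 the first intron stands at 30.4% in Gata2 and 0% in Gata3.

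Both genes also shared a pair of splice acceptors 3 bases apart, before the fully coding exon 4 of 146 bases, which codes for the N-terminal zinc finger. The annotation has the upstream acceptor only. The exons are shown because the 3 bases in capitals are those that the downstream acceptor leaves out, and both read AAG. Gata2 exon 4 is chr6:88202419-88202564 (plus strand) and Gata3 exon 4 is chr2:9868761-9868906 (minus strand), both in mm10, from GENCODE M21.
Gata2 exon 4: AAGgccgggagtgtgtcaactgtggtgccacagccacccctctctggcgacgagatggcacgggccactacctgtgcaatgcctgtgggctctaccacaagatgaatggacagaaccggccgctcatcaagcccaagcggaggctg
Gata3 exon 4: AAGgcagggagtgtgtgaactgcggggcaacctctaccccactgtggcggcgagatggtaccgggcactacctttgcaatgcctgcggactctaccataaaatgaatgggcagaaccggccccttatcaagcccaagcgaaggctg
The exons have the same base at 123 of 146 positions (84.2%). In Gata2 the downstream acceptor was used in 1 of 42 reads in replicate 1 and 1 of 37 in replicate 2. In Gata3 it was used in 4 of 13 and 5 of 10. Over both libraries this came to 2.53% of 79 reads in Gata2 (95% interval 0.308 to 8.85%). In Gata3 it came to 39.1% of 23 reads (19.7 to 61.5%), and these pooled intervals do not overlap. In replicate 1 alone they overlap, at 0.0603 to 12.6% in Gata2 and 9.09 to 61.4% in Gata3. In replicate 2 alone they do not, at 0.0684 to 14.2% in Gata2 and 18.7 to 81.3% in Gata3. Leaving out 3 bases keeps the reading frame. In the complete Gata3 chains of replicate 1, 7 reads used the upstream and 4 the downstream acceptor. Gata4 has both acceptors of such a pair in the annotation and used the downstream one in 7 of 9 reads over both libraries. Over all genes, 1281 acceptor pairs 3 bases apart with a common donor had at least 2 reads at each site, in 1092 genes. Pairs 4 bases apart numbered 465 and pairs 2 bases apart 427. The search for such pairs was added after the Gata3 models had been seen.

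Hand2, a basic helix-loop-helix factor that binds E-boxes with partners such as Tcf3, lies at chr8:57320983-57324633 on the plus strand (mm10). It had 13 reads in replicate 1 (17.3 CPM) and 24 in replicate 2 (19.8 CPM). Of these, 11 and 22 matched the only annotated transcript, Hand2-201, with its single intron spliced. The other reads, 2 in each library, were in genomic models, here single exons that match no annotated transcript. A 246-base model of this kind, inside the first exon at the 5′ end, had 1 read in each library. The other genomic model of each library ran through the intron. On the opposite strand lies Hand2os1, a noncoding gene whose RefSeq start is 124 bases upstream of the Hand2 start. It had 10 and 16 reads, or 13.3 and 13.2 CPM. The 250 bases before the Hand2 start, chr8:57320733-57320982 (GRCm38.p6, plus strand, RefSeq), are shown because both genes start there, and capitals mark the E-box word CANNTG.
Hand2: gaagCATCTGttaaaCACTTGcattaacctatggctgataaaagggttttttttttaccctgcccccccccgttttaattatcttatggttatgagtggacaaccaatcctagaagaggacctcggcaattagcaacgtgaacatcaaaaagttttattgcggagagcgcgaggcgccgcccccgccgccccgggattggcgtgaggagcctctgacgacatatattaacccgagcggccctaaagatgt
The window holds 2 CANNTG, 2 GATA and 5 ATTA words, both strands counted. Its GC content is 49.2%, close to the median of 52.4% over all promoters and below the 67.2% of the Gata2 distal window.

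Phox2a, a paired-like homeodomain factor, lies at chr7:101818313-101822726 on the plus strand (mm10). It had 8 reads in replicate 1 (10.6 CPM) and 11 in replicate 2 (9.09 CPM). The complete Phox2a-201 took 6 of 8 reads and 3 of 11. A single-exon ISM model of the last exon had 0 and 6 reads, and a 2-exon ISM model that lacks the first exon had 1 and 2. The retained-intron transcript Phox2a-202 had 1 and 0 reads. The gene Inppl1, which overlaps Phox2a on the opposite strand, had 18 and 37 reads. The sources used here do not say how strand was assigned, so unspliced reads of overlapping genes cannot be told apart with certainty.

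Insm1, a zinc finger factor of neuroendocrine cells, lies at chr2:146221921-146225020 on the plus strand (mm10) and has 1 exon of 3100 bases. Its 13 and 16 reads (17.3 and 13.2 CPM) were all assigned to Insm1-201. Models of annotated transcripts carry the annotated ends, so for this gene without introns the tables do not show how far the reads reached. Isl1, a LIM homeodomain factor, had 3 reads in replicate 1 and 5 in replicate 2. Of these, 1 and 3 matched the 6-exon Isl1-201, and a 5-exon ISM model lacking the first exon had 1 in each library. Tfap2b, of the AP-2 family, had 2 and 6 reads. In replicate 2, 4 of them matched the 7-exon Tfap2b-201, and in replicate 1 none did. Both fell under the minimum of 10 reads. With no minimum, their levels gave adjusted p-values of 1 for Isl1 and 0.948 for Tfap2b by Fisher's exact test. Sox11, a SoxC factor with 1 long exon, had 0 reads in both, which allows up to 3.99 and 2.48 CPM.

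Across the 8 genes, 77 of 102 reads in replicate 1 (75.5%, 95% interval 66.0 to 83.5%) and 63 of 121 in replicate 2 (52.1%, 42.8 to 61.2%) were in annotated models. Over all gene reads the shares were 77.0% and 75.6%. ISM models held 13.7% and 39.7% of the members' reads, and 9.44% and 11.9% of all gene reads. The members differed in this. Annotated models held 38 of 49 and 15 of 46 reads in Gata2, 7 of 8 and 3 of 11 in Phox2a, and 11 of 13 and 22 of 24 in Hand2. Hand2 has a single intron, so its reads that stop early in the first exon can still be counted as annotated.

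**Figure D4:**
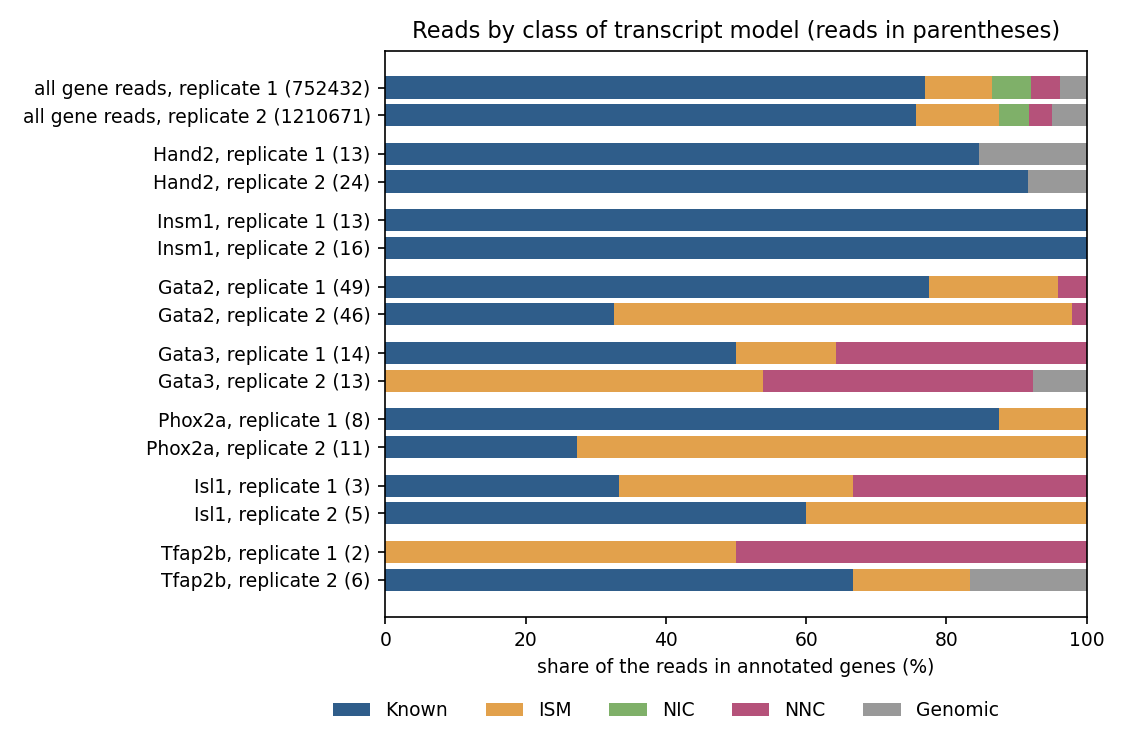
Share of reads by class of transcript model, in percent, for all gene reads and for each member with reads, 1 bar per library, with the number of reads in parentheses; NIC models join annotated splice sites in combinations outside the annotation. The ISM share (yellow) is larger in replicate 2 for Gata2, Gata3 and Phox2a, and absent in Hand2 and Insm1. On few reads it is 1 of 3 and 2 of 5 in Isl1, and smaller in replicate 2 for Tfap2b, at 1 of 2 and 1 of 6. Hand2 has a single intron and Insm1 none, so reads of these genes that stop early can still be counted as Known.

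A further test, added after these models had been seen, took the share of reads in models that begin within 100 bases of an annotated protein-coding start. It covered 7765 genes, each with 10 or more reads per library, and 10.2% passed by Fisher's exact test with Benjamini-Hochberg adjustment, 9.18% lower and 0.992% higher in replicate 2. The median share was 91.7% and 86.4%. Genes without introns stayed among the 7765, although models of their annotated transcripts carry the annotated start however far the reads reached. The share passed and the medians therefore include genes that could hardly differ. Of the 4 members tested, 2 passed. Gata2 had 41 of 49 and 14 of 46 such reads (83.7% and 30.4%, adjusted p = 7.41e-06 by Fisher's exact test). Gata3 had 12 of 14 and 0 of 13 (adjusted p = 0.000214 by Fisher's exact test). Hand2 had 12 of 13 and 23 of 24, and Insm1 all of its reads, with the limit given above. That limit holds for Hand2 too, since a model that splices its single intron carries the start of Hand2-201. How far reads reached within the first exon is not shown, so these shares cannot be set against those of Gata2 and Gata3. Of genes named after their values were seen, Dbh fell from 77.3% to 24.5% (adjusted p = 4.10e-14 by Fisher's exact test) and the GATA paralog Gata6 from 81.8% to 39.8% (adjusted p = 1.12e-06 by Fisher's exact test). Among the chromaffin granins, Chgb rose from 87.6% to 93.4% (adjusted p = 3.66e-15 by Fisher's exact test) and Chga fell from 91.8% to 87.9% (adjusted p = 0.000184 by Fisher's exact test). Th stood at 96.6% and 94.5% and did not pass (adjusted p = 0.0973 by Fisher's exact test). GC content over the first 500 bases of the transcript was 74.2% in Insm1-201, 72.4% in Gata2-201, 59.4% in Hand2-201 and 48.0% in Gata3-201. In the members not tested here it was 69.6% in Sox11-201, 69.4% in Phox2a-201, 52.8% in Tfap2b-201 and 52.2% in Isl1-201. The cause was not tested.

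Paralogs of the members were read by family. No read was found in either library for 7 paralogs: Gata1, Gata5, Isl2, Tfap2a, Tfap2c, Tfap2d and Tfap2e. In the GATA family, Gata6, a factor of the adrenal cortex, had 77 and 98 reads (102.3 and 80.9 CPM), and Gata4 had 2 and 12. In the SoxC family, Sox4 had 63 and 183 reads (83.7 and 151.2 CPM) and was higher in replicate 2, with a log2 difference of 0.84 ± 0.21 and an adjusted p of 0.000187 by Fisher's exact test. Sox12 had 8 and 7 reads. Hand1 had 7 and 10, and Insm2 6 and 3. Tfap2b was the only AP-2 gene with a read in these libraries, and Isl1 the only gene of its pair.

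**Figure D5:**
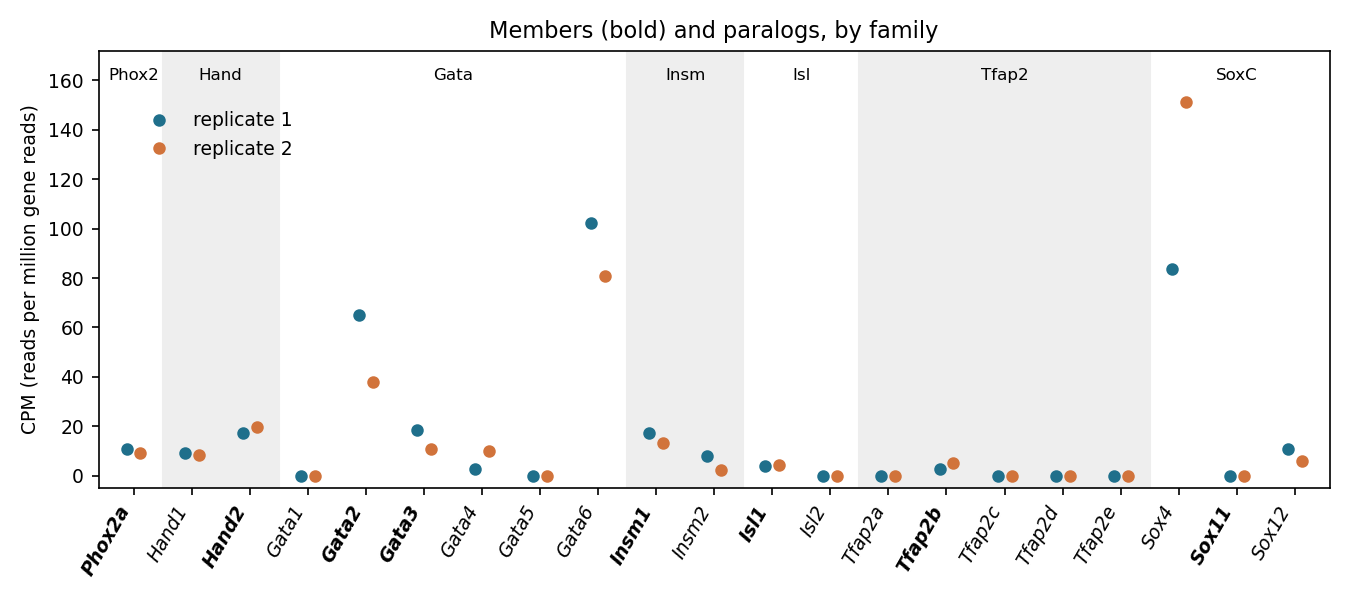
Level in CPM (y axis) of the members, in bold, and of the paralogs described here, grouped by family, with 1 point for each library. Sox4 at 83.7 and 151.2 CPM, and 7 paralogs at 0 in both libraries.

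Other regulators of the lineage were read in the same way. Of 12, 10 had enough reads, 5 were lower and 1, Sox4, was higher in replicate 2, beside 25.3% and 11.5% of all tested genes. The T-box repressor Tbx2 had 82 and 62 reads and fell by 1.09 on the log2 scale. Epas1, the hypoxia-inducible factor HIF-2α, had 78 and 46 reads and fell by 1.44, and the homeodomain factor Meis1 had 37 and 30 and fell by 0.98. With TMM factors 4 of the 10 were lower and 3 higher, beside 13.7% and 17.7% of all tested genes. Of 19 protein partners and inhibitors of the members, 17 had enough reads. Of these, 8 were lower and none higher in replicate 2, beside 25.3% and 11.5% of all tested genes. With TMM factors 5 were lower and 2 higher, beside 13.7% and 17.7%. The most abundant was Id2, an inhibitor of basic helix-loop-helix factors, with 330 and 340 reads, which fell by 0.64. Tcf3 (130 and 99 reads) and Tcf4 (108 and 99 reads), partners of Hand2, fell by 1.08 and 0.81. Id3 had 60 and 113 reads and did not pass (adjusted p = 0.507 by Fisher's exact test).

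Chromaffin cell genes include several targets of these factors. The 16 genes had 9303 reads in replicate 1 and 10228 in replicate 2, or 12364 and 8448 CPM. Of 15 tested, 9 were lower and 1, Ddc, was higher in replicate 2, beside 25.3% lower and 11.5% higher over all tested genes. With TMM factors 3 were lower and 2 higher, beside 13.7% and 17.7% of all tested genes. The granins Chgb (4424 and 3316 CPM), Chga (2872 and 2602 CPM) and Scg2 (2093 and 702 CPM) had the highest mean levels, followed by Th (1675 and 944 CPM). In replicate 2, Th lay above Scg2. Per 1000 reads of these 16 genes, Gata2 had 5.27 and 4.50 reads, Hand2 1.40 and 2.35, Gata3 1.50 and 1.27, Insm1 1.40 and 1.56, and Phox2a 0.860 and 1.08. On that total 0 of the 5 members tested passed Fisher's exact test, beside 32.5% of all tested genes, and 0 had an unadjusted p under 0.05. The members' counts are low, so the lack of a call does not show that their levels were equal.

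Marker genes of other cell types, some of which are known to express members of the set, were read to different degrees. The 10 endothelial genes, led by Plvap, Cldn5, Egfl7 and Tie1, came to 789 and 660 CPM in all, with all 10 read in both libraries. The 8 neuronal genes summed to 66.5 and 44.6 CPM, led by Snap25, with Elavl4, Nefl and Stmn2 next. The 8 Schwann and sustentacular cell genes, with S100b, Erbb3 and Mbp among them, summed to 37.2 and 41.3 CPM, and Sox10 had 1 and 0 reads. Mast cell genes summed to 23 and 7 reads, of which Hdc had 19 and 1, with 3 each of Kit and 1 and 3 of Tpsb2, and Cpa3, Mcpt4, Cma1 and Ms4a2 at 0. T cell and innate lymphoid genes had 2 and 7 reads, most of them Thy1, with 1 each of Cd3d and Cd3g in replicate 2 and Cd3e, Cd4 and Il7r at 0. Erythroid genes summed to 2033 and 2117 CPM, all from Hba-a1, Hbb-bs and Alas2, with Gata1 and Klf1 at 0. The adrenocortical genes, led by Cyp11a1, Cyp21a1, Cyp11b1 and Star, summed to 53643 and 21129 CPM. The part of these cells in the levels of Gata2, Gata3 and Hand2 was not tested.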

How the data were processed

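RNA of adrenal gland was sequenced as long reads in 2 libraries. The authors deposited raw read counts per transcript model for each library, with a transcript annotation each, per the file headers. Assembly mm10 and GENCODE M21 are given by notes deposited with the files. The sources used here give no aligner, strand assignment, treatment of PCR copies or tool versions. Models carry the authors' classes (Known, ISM, NIC, NNC, genomic and others).

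Gene counts are sums over a gene's models. Spike-in reads (11058 and 17139) and reads outside annotated genes (30509 and 62532) stayed out of the totals. A model was taken as shared where strand and introns were identical. Fisher's exact test (scipy 1.17.1, Python 3.11.15) and Benjamini-Hochberg adjustment ran over all genes that met the read minimum of each test. For log2 differences only, 0.5 reads were added. The tests were checked on simulated reads. Scaling alternatives used edgeR 4.0.16 and DESeq2 1.42.0 size factors in R 4.3.3. RefSeq promoters matched 7 of the 8 members. Of each gene list the 4 genes of highest mean CPM were named, with all members and paralogs, except that a few genes are not reported here. Members and lists were chosen with earlier results of these data known.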

Additional observations from a re-analysis of the deposited data

Results flagged for a closer look

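Reads of other loci at the members passed the 3 reads that a count of 0 allows in 4 cases. They were looked for in annotated genes that overlap a member or start within 5000 bases of its start, and in models on the opposite strand outside annotated genes. There is no control sample to set them against.

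Hand2os1, which starts beside Hand2 on the opposite strand, had 10 reads in replicate 1 and 16 in replicate 2. Inppl1, which overlaps Phox2a on the opposite strand, had 18 and 37 reads. Gm13256, an antisense gene over Gata3, had 0 reads in replicate 1 and 12 in replicate 2 (Fisher's exact test over all tested genes, adjusted p = 0.0164). All 12 were in 1 genomic model, a single exon of 308 bases at chr2:9877583-9877890 (mm10), inside exon 2 of Gata3-201. Models on the opposite strand of Gata3 outside annotated genes had 3 reads in replicate 1 and 6 in replicate 2. Whether the unspliced reads come from Gata3 or from the opposite strand was not tested.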

How the results depend on the processing

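No paired analysis was possible because the libraries are replicates 1 and 2 of 1 group. The Gata2 difference between the libraries passed in 6 of 10 other settings. Those 6 include annotated models alone and ISM models left out, which drop more Gata2 reads of replicate 2 and do not measure the level alone. The number of members called was 1 in those 6, and 0 with TMM factors, with DESeq2 factors, with chromaffin cell genes as the total and with no read minimum. Among all tested genes, the share called ran from 21.5% with no read minimum to 42.6% with a read minimum of 20. Over all genes, 1307 were higher and 2876 lower in replicate 2, against 2015 and 1563 with TMM factors, 2193 and 1387 with DESeq2 factors and 2659 and 1037 with chromaffin cell genes as the total. The cause was not tested. The sign of 2 uncalled log2 differences turned: Phox2a lay at 0.10 with TMM factors, 0.15 with DESeq2 factors and 0.30 with chromaffin cell genes as the total, and Insm1 at 0.0077 with DESeq2 factors and 0.15 with chromaffin cell genes as the total. The summed level of the members was 117.8 CPM, ran from 99.9 to 135.6 CPM with 1 library left out, and was 40.2 per kb of transcript, which is another unit. The Gata2 structure call held with splice sites matched within 5 bases and without single-exon models, and the count of genes called then fell from 698 to 379 in the latter. With 1 library left out, the Gata2-201 share ran from 19.6 to 61.2%, the members' share in annotated models from 52.1 to 75.5%, and the neighbouring reads from 36 to 78. The call on 5′ ends of Gata2 and Gata3 held with starts matched within 20 and within 500 bases; with at least 20 reads in each library 1 member was called, since Gata3 then was not tested. Gata3 lay at 14.7 CPM and at 6.04 with annotated models alone, and Phox2a at 9.86 and at 6.54 without ISM models. Isl1 and Tfap2b, with 8 reads each over both libraries, were tested with no read minimum only, and Sox11 not at all.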
